A study of Mus musculus with 20 samples.

Results

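The cells described here are the Pou4f1-positive cells of the embryonic mouse habenula at E15 and E18. They were chosen from 4 plates of a developmental series measured with CEL-seq2, a plate-based single-cell RNA method in which each transcript carries a unique molecular identifier (UMI). A well was kept if its counts without spike-in and mitochondrial rows reached 1000, its genes reached 500 and its mitochondrial share stayed within 20%, and was called Pou4f1-positive with a Pou4f1 count of at least 1. This gave 593 cells, 424 at E15 and 169 at E18, of 867 kept wells on the 4 plates and 3729 in the 15-plate series. The other plates of the series are of E11, E12, E13, P4, P7 and adult mice. The spread behind the p-values was estimated over 14 plates of the series, all but that of E12. The 4 plates of E15 and E18 all came from habenula of the Brn3a-tauLacZ mouse line, 2 plates at each stage. This line has a reporter knock-in at the Pou4f1 locus (Brn3a is the older name of Pou4f1). The sources used here give neither the genotype at that locus nor the sex, the number of animals pooled per plate or any sorting gate, so the plates are the replicates and p-values measure the spread between plates, which may be technical. As values only, 727 Pou4f1-positive wells from 5 plates of C57BL/6 habenula at E18 (2 left, 2 right, 1 of both sides) are given beside them. They differ from the series in mouse line and come from a separate table.

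Pou4f1 is a POU-homeodomain transcription factor that habenula neurons switch on as they leave the cell cycle and keep into adult life. The habenula is an epithalamic relay with a medial division, whose neurons make acetylcholine and tachykinins, and a lateral division. Between E15 and E18 most of its neurons have been born, their axons have entered the fasciculus retroflexus on the way to the midbrain, and synaptic contacts begin to form.

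The Pou4f1-positive wells held 1518467 and 2982510 counts in all on the E15 plates and 771466 and 1153913 on the E18 plates. Their median depth was 9820, 8554, 10756 and 8631 counts per well on E15 plate 1, E15 plate 2, E18 plate 1 and E18 plate 2. In that order, 152 of 188, 272 of 302, 75 of 267 and 94 of 110 kept wells were Pou4f1-positive, which is 80.9% (95% exact Clopper-Pearson interval 74.5 to 86.2%, counting error only), 90.1% (86.1 to 93.2%), 28.1% (22.8 to 33.9%) and 85.5% (77.5 to 91.5%). E18 plate 1 therefore stood apart from the other 3. Pou4f1 itself, which chose the wells and was left out of the test, had a level of 690 and 873 CPM (counts scaled to 1000000 per plate) at E15 and 485 and 887 CPM at E18. Wells at the edge of the rule, with a Pou4f1 count of exactly 1, numbered 25, 20, 26 and 4 on the 4 plates, and wells just outside it, with a count of 0, numbered 36, 30, 192 and 16. Of 55 wells of the 4 plates with more counts from vascular and fibroblast markers than from neuron markers, 5 (9.09%, exact interval 3.02 to 20.0%) held a Pou4f1 count, at a median depth of 6005 counts. By plate these were 0 of 4 and 0 of 1 at E15 and 4 of 40 and 1 of 10 at E18. The share thus says little about E15. Positive wells of more than 1 of the 4 plates shared 200 well barcodes, which belong to the 384-barcode layout common to all plates, and 0 wells had identical values.

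The chosen wells carried neuronal transcripts on every plate. The summed level of 10 neuron markers was 10450 and 9787 CPM at E15 and 6867 and 8754 CPM at E18. The 12 medial habenula markers separated plates of a stage more than the stages, at 1616 and 4511 CPM at E15 and 746 and 4892 CPM at E18. The 8 lateral habenula markers summed to between 1009 and 1271 CPM on all 4 plates. Single members moved within that sum, 4 with fold changes above 0 and 4 below. Chrm3, for 1, was at 23.7 and 42.6 CPM at E15 and 414 and 241 CPM at E18. The wells of E18 plate 1 also held transcripts of other cell types. Its 10 radial glia and progenitor markers summed to 2564 CPM, against 290 CPM on E18 plate 2 and 875 and 408 CPM at E15, and its ependymal and choroid plexus markers summed to 1566 CPM against 43 to 116 CPM on the other 3. On E18 plate 1 the wells with 1 Pou4f1 count were the source of most of this: their radial glia list stood at 5483 CPM and their neuron list at 3792 CPM, while wells with a Pou4f1 count of at least 5 had 1128 and 8727 CPM. The 12 vascular and fibroblast markers were at 53 and 32 CPM at E15 and at 305 and 368 CPM at E18, so both E18 plates lay above both E15 plates. Both did so too for the 12 genes of the dissociation response, among them the immediate early genes Egr1 and Jun, at 1297 and 1517 CPM at E15 and 1610 and 2517 CPM at E18. The 5 thalamic neuron markers went the other way, at 2064 and 2158 CPM at E15 and 1031 and 1159 CPM at E18. Of these sums Lhx9 made 1030 and 1286 CPM at E15 and 403 and 716 CPM at E18. Its mean in Pou4f1-positive wells was still 759 CPM at P4. Gbx2 was at 29.7 and 3.36 CPM at E15. Of the 5 markers 4 had fold changes below 0 and 1 above. The part of the transcripts of these lists in the results below was not tested. Calls of named genes and list medians printed or drawn below are therefore also given under stricter choices. These are wells with a Pou4f1 count of at least 5 (92, 187, 29 and 72 wells) and the fit without E18 plate 1. They are given where a call ends or turns, or a list median changes sign or moves by over 1.5 times.

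**Figure D1:**
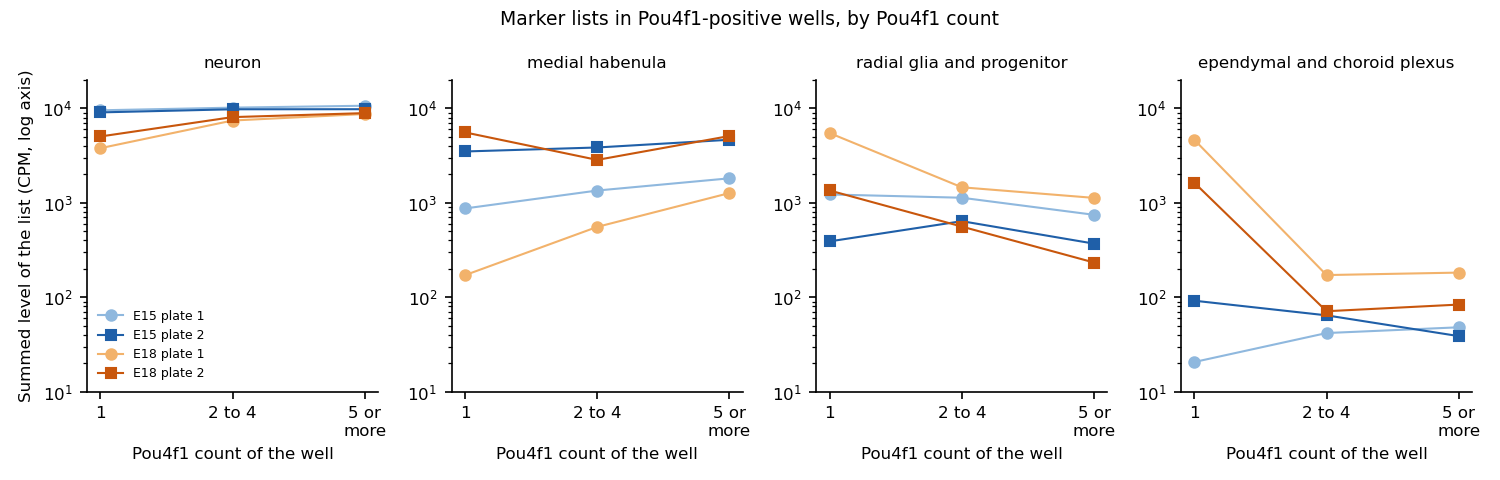
Summed level of 4 marker lists (CPM, log axis) in Pou4f1-positive wells grouped by their Pou4f1 count (1, 2 to 4, 5 or more); each line is 1 plate of E15 (blue) or E18 (orange). On E18 plate 1 the radial glia list falls from 5483 CPM in wells with 1 Pou4f1 count to 1128 CPM in wells with 5 or more, and the medial habenula list rises from 171 to 1269 CPM.

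Between E15 and E18 a small group of genes changed beyond the spread between plates, as estimated over 14 plates of 7 stages. The rise of Hrk, a pro-apoptotic BH3-only protein, had the smallest adjusted p of the genes that rose, and Sned1, Adamts20, Tnr, Sdc2 and Clmp, which encode matrix or cell-surface proteins, were also higher at E18. The LIM-homeodomain factor Lhx2, the corepressor Cbfa2t3, the fetal RNA-binding protein Igf2bp1 and the semaphorin receptor Plxna2 fell. Of 16328 genes tested by edgeR's quasi-likelihood test on counts summed per plate, 27 passed an adjusted p of 0.05 (0.165%), 17 higher at E18 (0.104%) and 10 lower (0.0612%), with 1956 genes (12.0%) under an unadjusted p of 0.05. The 14 plates of 7 stages (E11, E13, E15, E18, P4, P7 and adult) shared the estimate of the spread in this fit. A fit on the 4 plates of E15 and E18 alone called 0 genes by edgeR, with 726 at an unadjusted p under 0.05, while DESeq2 called 238 on the 14 plates. Leaving out E15 plate 1, E15 plate 2, E18 plate 1 or E18 plate 2 gave 2, 5, 1 and 189 calls, of which 1, 2, 1 and 21 are among the 27, and the 27 genes kept their direction in each of these 4 fits.

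**Figure D2:**
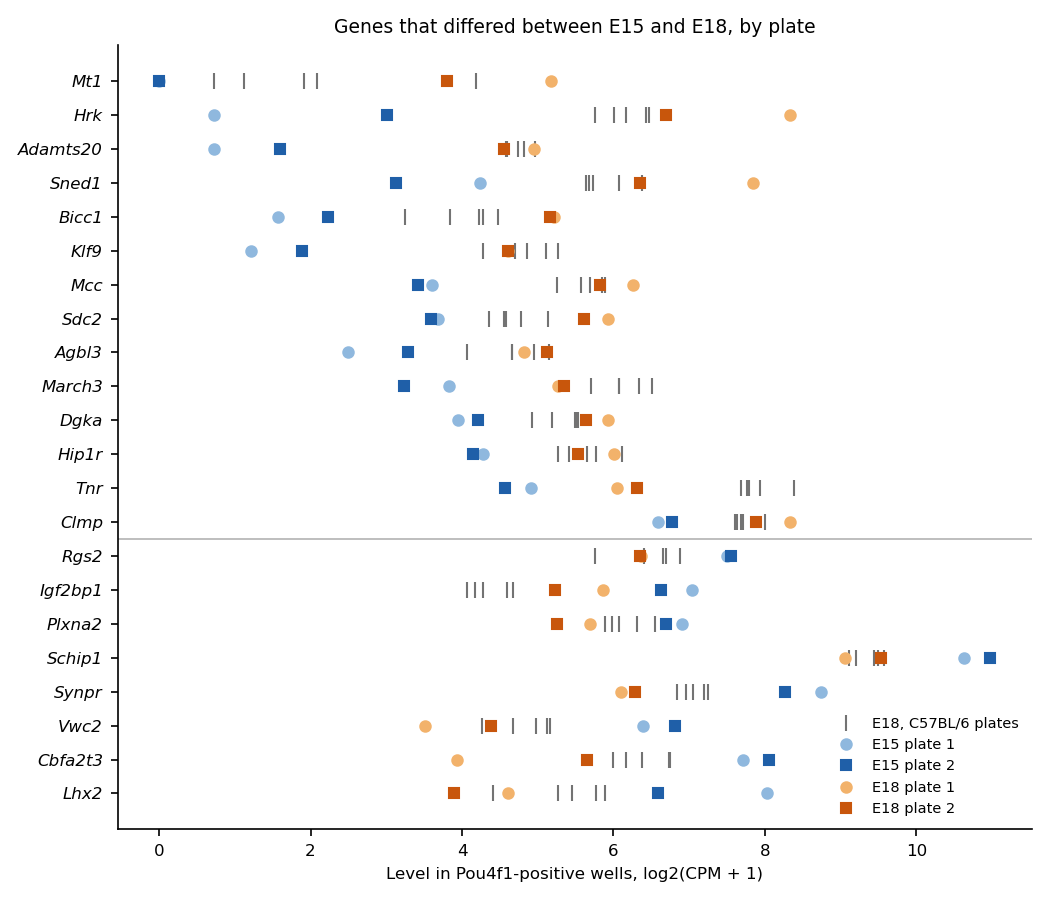
Level, as log2(CPM + 1), of the 22 named genes in the Pou4f1-positive wells of each plate; circles are plates 1, squares plates 2, blue E15 and orange E18, and grey ticks are the 5 C57BL/6 plates at E18. The 14 genes above the line were higher at E18 and the 8 below it lower, and the C57BL/6 plates lie above both E15 plates for those 14 and below for those 8, as for 20.5% and 14.6% of all genes tested in both tables; the 22 were chosen for their distance from the same E15 plates.

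Hrk (ENSMUSG00000046607, GRCm38 chromosome 5, 118164648 to 118189478, plus strand), which encodes Harakiri, was nearly absent at E15, with 0.659 and 7.04 CPM, and reached 320.4 and 102 CPM at E18. The 2 groups did not overlap, which the rule for named genes required. Its log2 fold change was 5.31 ± 0.59 (SE), with an adjusted p of 0.0167. The counts came from 1 and 14 wells at E15 and from 59 and 43 wells at E18. In Pou4f1-negative wells Hrk was at 39.8 and 11.6 CPM at E15 and at 75.5 and 0 CPM at E18. It was the 1 gene still called without E18 plate 1 (log2 fold change 4.42, adjusted p = 0.0239), and in wells with a Pou4f1 count of at least 5 its adjusted p was 0.00379. The C57BL/6 plates at E18 held 53.1 to 87.2 CPM.

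The promoter of Hrk is printed because Hrk had the smallest p of the genes that rose, and that of Lhx2 because Lhx2 fell furthest. Both are the 250 bases before the transcription start, from RefSeq on GRCm38.p6, plus strand, at chr5:118169514-118169763 for Hrk and chr2:38339031-38339280 for Lhx2, the first of the 2 starts the table holds for that gene. The RefSeq start of Hrk lies inside the gene body given above from GENCODE, which begins further upstream, and for Lhx2 the start used coincides with that of GENCODE. Capitals mark the letters AATTAAT, searched on both strands, the AT-rich core of a known in vitro binding site of Pou4f1; the motif was chosen after the gene's values were seen.
Hrk: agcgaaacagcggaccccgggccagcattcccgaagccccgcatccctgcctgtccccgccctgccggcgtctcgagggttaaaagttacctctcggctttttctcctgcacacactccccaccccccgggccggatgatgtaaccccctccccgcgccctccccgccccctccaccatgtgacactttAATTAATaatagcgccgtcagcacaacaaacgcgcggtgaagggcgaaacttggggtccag
Lhx2: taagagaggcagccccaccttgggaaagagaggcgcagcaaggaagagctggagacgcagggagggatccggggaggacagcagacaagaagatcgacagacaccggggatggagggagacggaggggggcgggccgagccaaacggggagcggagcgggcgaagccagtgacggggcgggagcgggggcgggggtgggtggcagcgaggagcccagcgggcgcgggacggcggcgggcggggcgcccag
The Hrk promoter holds the letters 1 time, beginning 61 bases before the start, and the Lhx2 promoter 0 times. Among 32851 RefSeq promoters of the same length 808 (2.46%) hold them, and 1 of the 25 promoter entries found for 17 of the 27 called genes does. A match is a run of letters and is not a measured binding site.

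Sned1, Adamts20, Tnr, Sdc2 and Clmp were higher at E18, while Vwc2 and Plxna2, which also encode secreted or cell-surface proteins, are among the genes that fell. Sned1, an extracellular matrix glycoprotein, was at 17.8 and 7.71 CPM at E15 and 228 and 80.6 CPM at E18 (log2 fold change 3.51 ± 0.59, adjusted p = 0.0431). Adamts20, a secreted metalloprotease, was at 0.659 and 2.01 CPM at E15 and 29.8 and 22.5 CPM at E18 (3.93 ± 0.56, adjusted p = 0.0330). Both genes were low on the younger plates, and the C57BL/6 plates held 48.9 to 82.1 CPM of Sned1 and 23.0 to 30.2 CPM of Adamts20. Tnr, the tenascin of perineuronal nets, rose from 29.0 and 22.8 CPM to 64.8 and 78.1 CPM (1.38 ± 0.24). Sdc2, a cell-surface heparan sulfate proteoglycan, rose from 11.9 and 11.1 CPM to 59.6 and 47.7 CPM (2.09 ± 0.29). Clmp, an immunoglobulin-type adhesion molecule of cell junctions, rose from 94.9 and 108 CPM to 320.5 and 234 CPM (1.31 ± 0.21). In wells with a Pou4f1 count of at least 5, Sned1, Adamts20, Sdc2 and Clmp passed again and Tnr did not (log2 fold change 1.39, adjusted p = 0.0556). Without E18 plate 1 none of these 5 genes passed, with adjusted p values from 0.0554 to 0.105. In the Pou4f1-negative wells Sned1 was at 8.85 and 5.79 CPM at E15 and at 133 and 421 CPM at E18.

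The other 8 named genes that rose are of varied function. Klf9, a zinc-finger transcription factor induced by thyroid hormone and glucocorticoids, was at 1.32 and 2.68 CPM at E15 and 23.3 and 23.4 CPM at E18 (log2 fold change 3.27 ± 0.56, adjusted p = 0.0487). Mcc, a coiled-coil protein linked to Wnt signalling, rose from 11.2 and 9.72 CPM to 75.2 and 55.5 CPM (2.51 ± 0.37), and it had the smallest adjusted p of the 27 genes in wells with a Pou4f1 count of at least 5 (0.00222). Mt1, a metal-binding metallothionein, had 0 counts on both E15 plates and 27 and 15 counts (35 and 13 CPM) at E18, which is at least 32.7-fold higher when 3 counts over the 2 E15 plates are taken as the floor. Of the Mt1 counts on E18 plate 2, 53.4% came from 1 well, and Pou4f1-negative wells held 204 and 327 CPM at E18. Bicc1, an RNA-binding protein with KH domains, rose from 1.98 and 3.69 CPM to 36.3 and 34.8 CPM (3.40 ± 0.51), but 77.6% of its counts on E18 plate 2 came from 1 well and in wells with a Pou4f1 count of at least 5 its adjusted p was 0.204. Hip1r, which links clathrin-coated pits to actin, Dgka, a kinase of diacylglycerol, Agbl3, a carboxypeptidase of tubulin tails, and March3, a membrane-bound ubiquitin ligase, rose with log2 fold changes of 1.49, 1.60, 2.00 and 1.78. March3 and Agbl3 did not pass in wells with a Pou4f1 count of at least 5 (adjusted p = 0.197 and 0.0556).

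Among the genes that fell, the steepest was Lhx2 (ENSMUSG00000000247, GRCm38 chromosome 2, 38339281 to 38369733, plus strand), a patterning factor of the forebrain and thalamus. It was at 259.7 and 94.9 CPM at E15 and 23.3 and 13.9 CPM at E18, a log2 fold change of -3.38 ± 0.57 (adjusted p = 0.0426). The E15 plates differed from each other by more than the E18 plates did. The ranges of the 2 stages were separate, which the rule for named genes required. Cbfa2t3, a corepressor of the ETO family, fell from 208 and 264 CPM to 14.3 and 49.4 CPM (-2.92 ± 0.42, adjusted p = 0.0362). Igf2bp1, an RNA-binding protein of fetal tissue and a target of the let-7 microRNAs, fell from 130.4 and 98.3 CPM to 57 and 36.4 CPM (-1.43 ± 0.22). These 3 genes also fell in wells with a Pou4f1 count of at least 5, with adjusted p values of 0.0136, 0.00959 and 0.0216. Without E18 plate 1 the calls of all 3 ended, as did those of every called gene but Hrk, while the directions were kept.

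The other 5 named genes that fell are of varied function too. Plxna2, a receptor of class 6 semaphorins, fell from 119 and 103 CPM to 50.6 and 37.3 CPM, a log2 fold change of -1.47 ± 0.19, and had the smallest adjusted p of the genes that fell (0.0330). Vwc2, a secreted antagonist of bone morphogenetic proteins, fell from 83.0 and 112 CPM to 10.4 and 20.0 CPM (-2.74 ± 0.45). Synpr, the synaptic vesicle protein synaptoporin, fell from 425 and 306 CPM to 67.4 and 77.2 CPM (-2.44 ± 0.39), with an adjusted p of 0.0640 in wells with a Pou4f1 count of at least 5. Rgs2, which ends signalling of Gq-coupled receptors, fell from 179 and 186 CPM to 81.7 and 80.6 CPM (-1.29 ± 0.21), with little spread between plates of a stage. Schip1, a partner of the cytoskeletal linker merlin, fell from 1575 and 2015 CPM to 534 and 742 CPM (-1.60 ± 0.25). Most of its counts were unspliced, 91.0% at E15 and 86.0% at E18, and its gene body lies inside that of Gm21949, which was also called (-1.61), so the 2 cannot be told apart. 

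The other 5 called genes fell outside the rule that chose the names, for a level under 20 CPM or a provisional name, and are named because the count is small. Slc24a4, a sodium, potassium and calcium exchanger, was at 0 and 0.335 CPM at E15 and 11.7 and 19.1 CPM at E18. Gm21846 and Gm29521 were higher at E18, at 62.2 and 74.6 CPM and at 108 and 83.2 CPM, and Gm26871, whose gene body contains Mir137, was lower, at 51.9 and 65.9 CPM against 183 and 224 CPM at E15. The C57BL/6 plates overlapped the E15 level of Gm29521, at 11.1 to 32.1 CPM.
The sources used here do not say whether counting used strand. Of the 22 named genes, 17 overlap at least 1 other annotated gene and are uncertain for that reason. Mt1, Hrk, Adamts20, Sdc2 and Rgs2 overlap none.

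Followed over all stages in Pou4f1-positive wells, the called genes fell into different courses. Because the genes were chosen for their E15 to E18 difference, these courses are descriptions with no test. Hrk and Sned1 were highest at E18. Hrk went from 20.5 CPM at E11, 5.10 CPM at E13 and 3.85 CPM at E15 to 211 CPM at E18 and 28.9 CPM at P4. Sned1 went from 12.7 CPM at E15 to 154 CPM at E18 and 13.1 CPM at P4. Clmp and March3 were higher at E11 than at E18. Clmp was at 563, 102 and 277 CPM at E11, E15 and E18 and at 90.5 CPM at P4. March3 was at 63.4, 10.8 and 38.7 CPM at E11, E15 and E18. Both E18 plates lay above all 13 other plates of the series for 6 of the 27 genes, Hrk, Sned1, Sdc2, Slc24a4, Gm21846 and Gm29521, and for 3.28% of all genes tested; since the 27 were chosen for the same plates, nothing is read from this count. Klf9, Tnr and Mt1 were higher at each later stage mean, reaching 100 CPM, 463 CPM and 214 CPM in the adult. Igf2bp1 went from 191 CPM at E11 to 46.7 CPM at E18 and 1.5 CPM at P4, and Lhx2 stayed between 16.3 and 22.7 CPM after E18. Synpr was high at E15 (366 CPM), low at E18 (72.3 CPM) and high again at P4 (571 CPM). Several list members described below also had a lower mean at E18 than at E15 and P4. At E15, E18 and P4 in turn, Etv1 was at 539, 61.9 and 1408 CPM and Neurod1 at 328, 152 and 635 CPM. Lmo3 was at 452, 186 and 504 CPM, Robo3 at 1075, 353 and 640 CPM and Lin28b at 127, 39.6 and 101 CPM. Irx3 (89.7, 33.8 and 19.9 CPM) and Igf2bp3 (173, 103 and 3.47 CPM) were lower still at P4. Both E15 plates lay above all 13 others for Rgs2 and for the overlapping Schip1 and Gm21949, and for 0.937% of all genes tested.

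**Figure D3:**
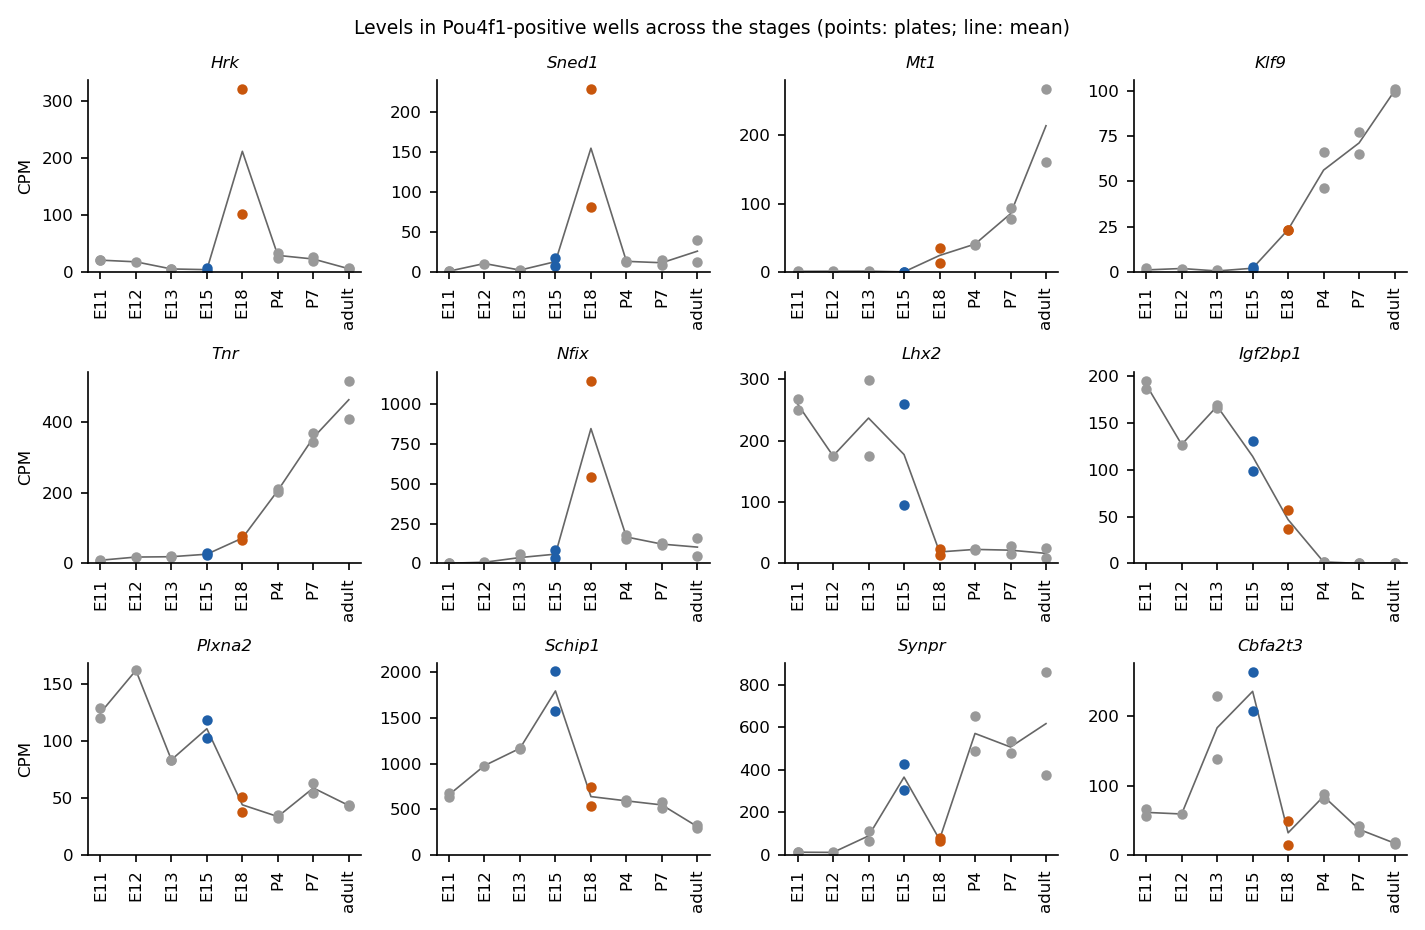
Level (CPM, linear axis) of 12 genes in Pou4f1-positive wells at each stage; points are plates, lines join the stage means, and E15 is blue and E18 orange (1 plate at E12, 2 at each other stage). Hrk, Sned1 and Nfix are highest at E18, Klf9, Tnr and Mt1 go on to higher levels after birth, and Synpr is at 72.3 CPM at E18 between 366 CPM at E15 and 571 CPM at P4.

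Transcription factors that mark the identity and age of habenula neurons were described by lists chosen with earlier results of these data known. Over all genes tested the median log2 fold change was -0.02, with 7857 genes higher and 8418 lower at E18. All 4 nuclear factor I genes, which accompany late neuronal and glial differentiation, had fold changes above 0 (median 1.78) and both E18 plates above both E15 plates, as did 20.6% of all genes tested, and 0 of the 4 passed the test. Without E18 plate 1 the median of this list was 0.83. Nfix was the furthest apart, at 83.0 and 32.5 CPM at E15 and 1148 and 545 CPM at E18, a log2 fold change of 3.77 ± 0.67 with an adjusted p of 0.0585. In wells with a Pou4f1 count of at least 5 it rose (4.15, adjusted p = 0.00806), beside 32 genes of 15380 called higher there (0.208%). The C57BL/6 plates held 308 to 415 CPM of Nfix.

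Of 11 tested habenula transcription factors 10 had fold changes below 0, with a median of -0.90, and 0 passed. For 6 of them both E18 plates lay below both E15 plates, as for 15.3% of all genes tested. Irx3 was at 88.9 and 90.6 CPM at E15 and 33.7 and 33.8 CPM at E18 (log2 fold change -1.53, adjusted p = 0.0613), a close agreement of the plates within each stage. Lmo3, a LIM-only cofactor, was at 422 and 481 CPM at E15 and 163 and 209 CPM at E18 (-1.38, adjusted p = 0.0944), and it fell in wells with a Pou4f1 count of at least 5 (-1.44, adjusted p = 0.0194), beside 20 genes called lower there (0.130%). Etv1 was at 210 and 867 CPM at E15 and 44.1 and 79.8 CPM at E18 (-3.23, adjusted p = 0.101). The C57BL/6 plates at E18 held 309 to 389 CPM of Lmo3, between the 2 groups. Among 16 early neuronal transcription factors 1 fell, Lhx2, beside 0.0612% of all genes tested, and the median was -0.45, or -0.89 without E18 plate 1. Neurod1, a bHLH factor of differentiating neurons, was at 286 and 371 CPM at E15 and 126 and 179 CPM at E18 (adjusted p = 0.159).

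Of 7 genes that time development through RNA binding or chromatin, 1 fell, Igf2bp1, beside 0.0612% of all genes tested, and the median was -0.66. Lin28b, which blocks let-7 maturation, was at 127 and 128 CPM at E15 and 14.3 and 65.0 CPM at E18 (log2 fold change -1.70, adjusted p = 0.188). Igf2bp3 was at 199.6 and 146 CPM at E15 and 127 and 79.8 CPM at E18 (adjusted p = 0.303). Both E18 plates lay below both E15 plates for 4 of the 7 genes, these 2 included, against 15.3% of all genes tested.

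Of 19 cytoskeletal genes of growing axons 0 passed; 18 had fold changes below 0, with a median of -0.41 beside -0.37 for the 10 neuron markers. Tuba1a, the main tubulin of young neurons, was at 13210 and 12250 CPM at E15 and at 8209 and 8643 CPM at E18 (adjusted p = 0.289), and Tubb3 had a log2 fold change of -0.70 (adjusted p = 0.260). Without E18 plate 1 the median of this list was -0.08 and that of the neuron markers -0.10, and in wells with a Pou4f1 count of at least 5 they were -0.25 and -0.16. Of 23 axon guidance receptors 1 fell, Plxna2, beside 0.0612% of all genes tested, and the median was -0.34. Both E18 plates lay below both E15 plates for 8 of the 23, against 15.3% of all genes tested, and above them for 4, against 20.6%; 9 of the 23 had fold changes above 0. Robo3, a receptor known from commissural and habenular axons, was at 970.2 and 1179 CPM at E15 and 199.8 and 506 CPM at E18 (-1.69, adjusted p = 0.217), and the ephrin receptor Epha5 was at 126 and 219 CPM at E15 and 77.8 and 76.3 CPM at E18 (-1.30, adjusted p = 0.149).

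Among genes of vesicle release, transmitter receptors and ion channels 0 passed over all Pou4f1-positive wells. The median was 0.08 for 21 genes of vesicle release, 0.11 for 26 receptors of glutamate, GABA and glycine, 0.12 for 24 potassium and HCN channels and -0.16 for 23 sodium and calcium channels. Without E18 plate 1 these 4 medians were 0.38, 0.37, 0.28 and 0.19, and in wells with a Pou4f1 count of at least 5 they were 0.26, 0.14, 0.20 and 0.04, so that of the sodium and calcium channels turned its sign in both. The vesicle protein Sv2c was at 5.27 and 16.1 CPM at E15 and 32.4 and 60.7 CPM at E18 (adjusted p = 0.121). The potassium channel partner Kcnip3 was at 8.56 and 5.36 CPM at E15 and 22.0 and 34.7 CPM at E18 (adjusted p = 0.0875). Gabrb1, a subunit of the GABA-A receptor, was at 19.8 and 20.1 CPM at E15 and 131 and 39.0 CPM at E18 (adjusted p = 0.0875). Grik2, a kainate receptor subunit, was at 496 and 309.8 CPM at E15 and 152 and 158 CPM at E18 (adjusted p = 0.146), and the pacemaker channel Hcn4 was at 81.7 and 65.4 CPM at E15 and 25.9 and 41.6 CPM at E18 (adjusted p = 0.232). Sv2c, Kcnip3 and Gabrb1 were thus higher on both E18 plates and Grik2 and Hcn4 lower on both. Both E18 plates lay above both E15 plates for 3 of the vesicle genes, 4 of the receptors, 8 of the potassium and HCN channels and 2 of the sodium and calcium channels, against 20.6% of all genes tested, and below for 2, 2, 1 and 3, against 15.3%.

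In wells with a Pou4f1 count of at least 5, 52 of 15380 genes were called (0.338%), 20 of them among the 27. Beside Tnr, Bicc1, March3, Agbl3 and Synpr, the calls of Mt1 and Gm26871 ended there, both at an adjusted p of 0.0528. Beside Nfix and Lmo3, 4 list members passed in these wells that had not over all positive wells. Chrm3, the M3 muscarinic acetylcholine receptor, rose (log2 fold change 3.72, adjusted p = 0.0162); over all positive wells it was at 23.7 and 42.6 CPM at E15 and 414 and 241 CPM at E18 (adjusted p = 0.0722). Cbln4, a secreted organiser of synapses, rose (2.36, adjusted p = 0.0136), with 9.22 and 24.5 CPM at E15 and 62.2 and 116 CPM at E18 over all positive wells. Chrna4, a nicotinic receptor subunit, fell (-3.93, adjusted p = 0.0292), from 49.4 and 37.6 CPM to 9.07 and 2.60 CPM over all positive wells. Foxp2, a forkhead factor listed as a thalamic marker, fell (-3.46, adjusted p = 0.0216), from 447 and 513 CPM to 110.2 and 32.1 CPM over all positive wells. With these wells on the 4 plates alone edgeR called 0 genes, and 640 were under an unadjusted p of 0.05.

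No transmitter marker or neuropeptide gene tested passed over all positive wells. Tac1, which encodes substance P of the dorsal medial habenula, was at 353 and 324 CPM at E15 and 5.18 and 103 CPM at E18 (adjusted p = 0.214). Of the 12 medial habenula markers, Tac1 included, 5 had fold changes above 0 and 7 below, with a median of -0.08. Without E18 plate 1 this median was 0.61, and in wells with a Pou4f1 count of at least 5 it was 0.008. Of the 18 neuropeptide and granule genes 11 lay above 0 and 7 below, with a median of 0.098. Under the same choices that median was 0.57 and 0.27. Tac2, in both lists, had a log2 fold change of 3.11 from few counts (adjusted p = 0.354). Gad1, which makes GABA, was at 5.93 and 3.02 CPM at E15 and 94.7 and 127 CPM at E18 (4.63, adjusted p = 0.206), above the 23.6 to 50.0 CPM of the C57BL/6 plates. For Tac1 and Gad1 the 2 stages did not overlap. Both E18 plates lay above both E15 plates for 2 of 6 transmitter markers and 2 of 18 neuropeptide and granule genes, against 20.6% of all genes tested. They lay below for 1 and 2, against 15.3%. Nrgn, a calmodulin-binding protein, was at 20.4 and 216 CPM at E15 and 3.89 and 19.9 CPM at E18, while the C57BL/6 plates held 353 to 454 CPM.

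No marker of glial, ependymal or vascular cells passed the test. The summed ependymal and the summed vascular markers were higher on both E18 plates than on both E15 plates, while the summed radial glia and astrocyte markers were higher on E18 plate 1 alone and on E18 plate 2 lay below both E15 plates (290 against 875 and 408 CPM, and 228 against 428 and 234 CPM). The median log2 fold change was 1.33 for 10 radial glia and progenitor markers and 3.64 for 10 astrocyte markers, and without E18 plate 1 it was -1.16 and 1.11. Slc1a3, a glial glutamate transporter, was at 1.32 and 1.68 CPM at E15 and 370.1 and 24.3 CPM at E18 (6.72, adjusted p = 0.0585), and in wells with a Pou4f1 count of at least 5 its adjusted p was 0.244. Ttr, the choroid plexus protein, was at 8.56 and 0 CPM at E15 and 1457 and 5.2 CPM at E18. Col1a2, a fibroblast collagen, was at 1.32 and 0 CPM at E15 and 87.0 and 74.0 CPM at E18, higher than the 0.361 to 11.8 CPM of the C57BL/6 plates. In wells with a Pou4f1 count of at least 5 the median of the radial glia list was 0.16 and that of the astrocyte list 1.97.

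**Figure D4:**
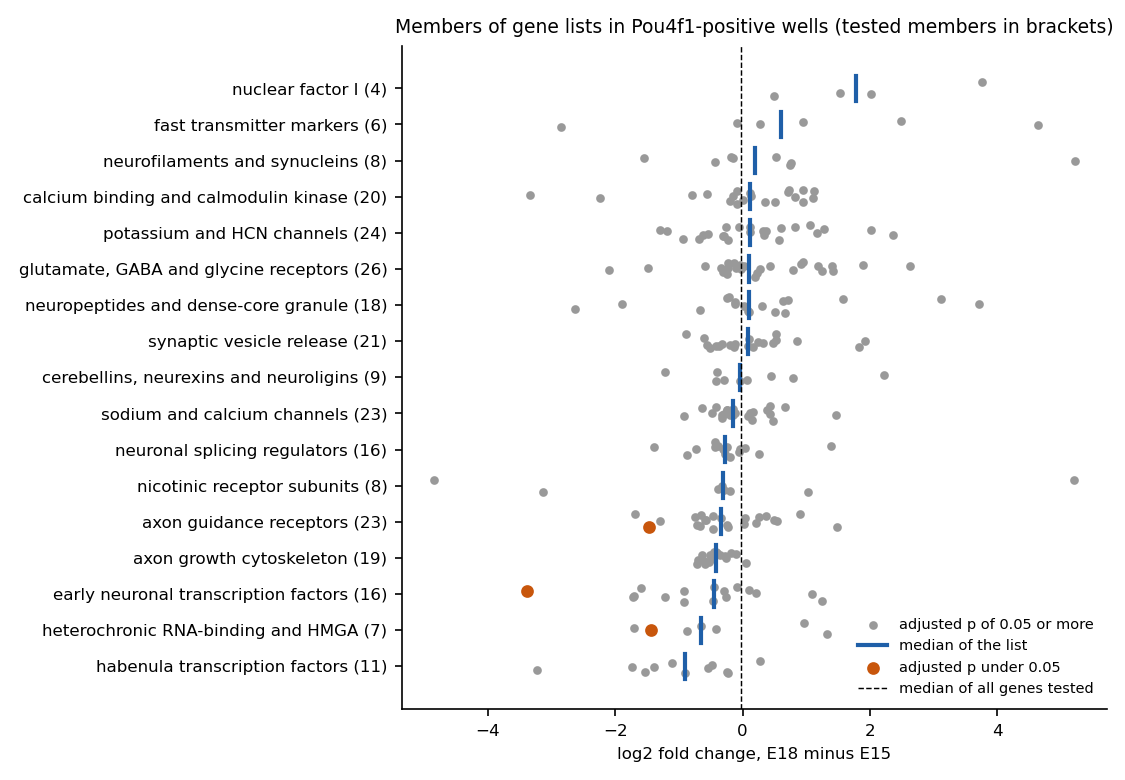
Log2 fold change (E18 minus E15) of each tested member of 17 gene lists in Pou4f1-positive wells; grey points did not pass an adjusted p of 0.05, orange points did, blue bars are list medians and the dashed line is the median of all genes tested. Lhx2, Igf2bp1 and Plxna2 are the 3 orange points. The nuclear factor I list lies highest (median 1.78) and the habenula transcription factors lowest (-0.90). Without E18 plate 1, not drawn, neurofilaments and synucleins had the highest median (0.96) and early neuronal transcription factors the lowest (-0.89). Other medians that moved follow, over all positive wells, with a Pou4f1 count of at least 5 and without E18 plate 1. They were -0.05, -0.0002 and 0.23 for cerebellins, neurexins and neuroligins, and 0.12, 0.35 and 0.36 for calcium binding and calmodulin kinase. They were -0.28, -0.14 and -0.08 for neuronal splicing regulators. For fast transmitter markers they were 0.61, 0.79 and 0.38, and for neurofilaments and synucleins 0.19, 0.45 and 0.96. Points beyond 4 in either direction are genes of few counts, apart from Gad1.

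Whether a change differed between wells with and without a Pou4f1 count was tested in 28 sums, 2 from each of the 14 plates, with the plate as a block. The Pou4f1-negative class held 36, 30, 192 and 16 wells on the 4 plates, at median depths of 5077, 5566, 7831 and 3107 counts. Its cells also differed between the stages: the neuron markers were at 7844 and 7935 CPM at E15 and 1725 and 2526 CPM at E18, the radial glia markers at 1284 and 1421 CPM at E15 and 6648 and 2225 CPM at E18, and the vascular markers at 1514 and 69.5 CPM at E15 and 1029 and 18904 CPM at E18. The part of depth and of cell type in the class of a well was not tested. The difference passed for 2 of 14574 genes (0.0137%), Runx1t1 and Ttr, with 859 (5.89%) under an unadjusted p of 0.05. For none of the 22 named genes did the change differ between the classes at an adjusted p of 0.05; Hrk came nearest (difference in log2 fold change 5.14 ± 1.10, adjusted p = 0.119).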

How the data were processed

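Each plate is 1 sample, and groups and replicate numbers came from the labels. The authors deposited, per gene and well, estimated counts: UMI numbers corrected for collisions among 4096 possible 6-base UMIs, as the values themselves show, since inverting that correction gave whole UMIs (tolerance 1e-06) for 100% of the values. The planned test took whole counts, so the deposited expected counts were summed per plate over the chosen wells and rounded. Per the submitters' processing notes STAR 2.5.3a, Trim Galore and mm10 were used; the sources used here give no annotation or counter. Which plates shared a sequencing run of 5 plates is not given, so run and stage cannot be told apart.

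Levels are CPM of counts without spike-ins and mitochondrial genes. Sums of 14 plates (7 stages with 2 plates each) were tested with edgeR 4.0.16 (filterByExpr, TMM, glmQLFit, glmQLFTest) under R 4.3.3, with Benjamini-Hochberg adjustment at 0.05; the SE is the log2 fold change divided by the square root of F. Pou4f1 was left out of the test. Named genes were those called, not overlapping between stages, with a mean of at least 20 CPM on the higher side and a symbol that is not provisional, up to 15 in each direction, and up to 4 members of each list by p. The wells and the gene lists were chosen with earlier results of these data known. Single values were not tested, since 2 plates against 2 cannot give a two-sided exact permutation p below 0.333. Intervals cover counting error only. No doublet caller was run; wells above 3 times the plate median were left out in an alternative. Positions are from GENCODE M21 (GRCm38), which matched 37901 of 37957 gene IDs. The test was also run on simulated counts for E18 against E15 (1 common dispersion, 15234 genes). It called 100 of 100 genes changed by 3 on the log2 scale, 91 of 100 changed by 2 and 14 of 15034 unchanged genes. The changed genes were drawn from those with a mean above 20 CPM, and apart from the change each gene had 1 mean on all plates. The simulation lacks the uneven spread of the real plates, so these rates are not those of the real comparison. Alternatives changed the scaling, tool (DESeq2 1.42.0), filter, plates, Pou4f1 threshold, wells, depth and count type.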

Additional observations from a re-analysis of the deposited data

Results flagged for a closer look

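The change from E15 to E18 differed between Pou4f1-positive and Pou4f1-negative wells of the same plates for 2 genes, by edgeR's quasi-likelihood test of the difference. Runx1t1 (ENSMUSG00000006586, GRCm38 chromosome 4, 13743436 to 13893649, plus strand), a corepressor of the same ETO family as Cbfa2t3, was at 343 and 277 CPM at E15 and 562 and 613 CPM at E18 in positive wells. In negative wells it was at 742 and 435 CPM at E15 and 157 and 140 CPM at E18. The negative wells also held fewer neuronal transcripts at E18, with neuron markers at 7844 and 7935 CPM at E15 and 1725 and 2526 CPM at E18, radial glia markers at 6648 CPM on E18 plate 1 and vascular markers at 18904 CPM on E18 plate 2. Their part in the difference was not tested. The levels moved in opposite directions in the 2 classes on both plates of each stage, a difference in log2 fold change of 2.80 ± 0.46 (adjusted p = 0.0303). The adjusted p was 0.119 on the 4 plates alone and 0.165 without E15 plate 1, and between 2.46e-05 and 0.0265 in the other 5 alternatives.

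Ttr had a difference in log2 fold change of 7.22 ± 0.94 (adjusted p = 0.0103). On E18 plate 1 the ependymal and choroid plexus list, which holds Ttr, was at 4653 CPM in the positive wells with 1 Pou4f1 count. The list was at 172 CPM in wells with a count of 2 to 4 and at 182 CPM in wells with 5 or more. Ttr was at 8.56 and 0 CPM at E15 and 1457 and 5.2 CPM at E18 in positive wells. In negative wells it was at 519 and 0 CPM at E15 and 557 and 0 CPM at E18. High values were thus found on plates 1 alone, and without E15 plate 1 the adjusted p was 1.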

How the results depend on the processing

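The 27 genes called between E15 and E18 kept their direction wherever they were tested, and the count of calls moved widely. It was 29 with RLE scaling, 238 with DESeq2, 593 with no filter on low counts, 0 on the 4 plates of E15 and E18 alone, 42, 54 and 52 in wells with a Pou4f1 count of at least 2, 3 and 5, 50 without wells above 3 times the plate median, 53 in wells with more neuron than glial counts, 2 on spliced counts and 20 on unspliced counts. Wells thinned to 2000 counts gave 27 calls, of which 7 are among the main 27 (26 of these were tested), and all kept wells gave 38, of which 13 are. DESeq2, the absence of a filter and the filter of 10 CPM (37 calls) each held all 27. Leaving out 1 plate gave 1 to 189 calls. In alternatives added after seeing the data, plates 1 alone gave 53 calls, plates 2 alone 4, and the 4 plates alone 0 in wells with a Pou4f1 count of at least 5 and 0 in wells with more neuron than glial counts (640 and 677 under an unadjusted p of 0.05). The difference between well classes was called for 1 gene on the 4 plates alone, 61 with no filter and 0 to 179 without 1 plate. Where a plate is left out, its stage has 1 plate, assumed to vary like the other stages. The cause of these shifts was not tested.

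With the replicate number as a block the 14 plates gave 25 calls, 21 of them among the 27, and the 4 plates with the replicate block gave 224, on 1 residual degree of freedom. The plate differences of E15 and E18 correlated at 0.48 over 10661 genes, and over other pairs of stages the correlation ran from -0.33 to 0.16. Over 10426 genes the log2 CPM of E15 plate 2 correlated at 0.918 with E18 plate 2 and at 0.911 with E15 plate 1. Those of E18 plate 1 correlated at 0.853 with E15 plate 1 and at 0.811 with E18 plate 2. Each E18 plate was thus closer to the E15 plate of its number than to the other E18 plate. E15 plate 1 was closer to E15 plate 2 (0.911) than to E18 plate 1 (0.853). There are only 2 pairs, and whether the numbers pair the plates was not tested. The main fit has no block. Of the genes named, Nrgn reversed, on unspliced counts (log2 fold change 0.12).

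Depth limits genes at a few CPM: 3 counts, which a count of 0 allows, correspond to 0.667 CPM over both E15 plates.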
